A study of Mus musculus with 4 samples.

Results

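The 8 genes Fasn, Acaca, Acly, Scd1, Scd2, Hmgcs1, Sqle and Srebf1, which encode enzymes of fatty acid and cholesterol synthesis and one of their transcriptional regulators, were taken by symbol from the 31054 features of 4 single-cell RNA libraries of mouse lung. All 8 symbols were found, each with 1 Ensembl identifier. The mice were male C57BL/6 animals, 19 months old at the start, which received either BPTES, an allosteric inhibitor of the glutamine-splitting enzyme glutaminase, or its vehicle DMSO for 1 month, with 2 libraries in each group. Every animal was aged and no young group or untreated group enters these comparisons. Lungs were digested with Liberase, and for each library 20000 CD45- and 9000 CD45+ cells of the same tissue were mixed, so the numbers of immune and non-immune cells were set by the sort. The dose and how many mice a library holds are not given in the sources used here, and p-values measure the spread between libraries only.

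Fatty acid synthesis starts with citrate exported from mitochondria. ATP citrate lyase (Acly) splits it into acetyl-CoA, acetyl-CoA carboxylase (Acaca) makes malonyl-CoA, fatty acid synthase (Fasn) builds palmitate, and the stearoyl-CoA desaturases (Scd1, Scd2) place a double bond. Hmgcs1 condenses acetyl-CoA units at the head of the mevalonate route and squalene epoxidase (Sqle) acts on squalene in its sterol branch. Srebf1 encodes SREBP-1, which with its relative SREBP-2 binds sterol regulatory elements in the promoters of these genes, often beside boxes for the factor NF-Y. In the lung, type 2 alveolar epithelial cells are known for making the saturated phospholipids of surfactant.

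The genes lie on 4 chromosomes of the mouse build mm10 (GRCm38). Fasn spans chr11:120805846-120824547, Acaca chr11:84129672-84401651, Acly chr11:100476353-100528000 and Srebf1 chr11:60199089-60222581. Scd1 (chr19:44394455-44407879) and Scd2 (chr19:44293674-44306864) are neighbours with 87590 bases between them. Hmgcs1 lies at chr13:119690379-119708260 and Sqle at chr15:59315077-59331192. RefSeq promoter entries of the same build (GRCm38.p6) were matched for 5 of the 8 genes. The 250 bases before the start are shown for Hmgcs1, the sole member whose window held the sterol regulatory element core, and for Fasn, whose level in type 2 cells is described further on. Each runs 5′ to 3′ on the gene's strand, and capitals mark the sterol regulatory element core (TCACNCCAC) and the NF-Y box (CCAAT), on either strand.
Hmgcs1, chr13:119690101-119690350, plus strand: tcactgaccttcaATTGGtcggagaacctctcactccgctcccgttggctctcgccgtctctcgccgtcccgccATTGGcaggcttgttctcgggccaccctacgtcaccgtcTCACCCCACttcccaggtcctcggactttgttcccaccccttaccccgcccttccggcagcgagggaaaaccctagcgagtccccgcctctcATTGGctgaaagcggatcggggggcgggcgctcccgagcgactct
Fasn, chr11:120824548-120824797, minus strand: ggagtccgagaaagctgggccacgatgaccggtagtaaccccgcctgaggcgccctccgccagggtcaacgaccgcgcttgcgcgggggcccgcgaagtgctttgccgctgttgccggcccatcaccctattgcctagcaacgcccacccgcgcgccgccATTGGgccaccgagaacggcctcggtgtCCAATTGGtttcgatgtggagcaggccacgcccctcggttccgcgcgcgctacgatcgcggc

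Hmgcs1 held 1 core match 137 bases before the start, with NF-Y boxes 45, 176 and 237 bases before it. Fasn held NF-Y boxes 59, 62 and 90 bases before the start, of which the first 2 overlap on opposite strands. Of 32851 RefSeq windows of this length, 1.05% held the core and 33.8% an NF-Y box, while 6.02% held the E-box CACGTG, which no window of the members held. These matches describe letters in a window, not bound sites.

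The deposited matrices held between 260346570 and 342107092 UMIs (unique molecules) per library. After filters and doublet removal, 63895 cells entered 38 clusters, of which 5 clusters with 10243 cells (16.03%) stayed unnamed. Names rest on marker genes and end in "-like". All 9 markers of type 2 cells were detected in at least 10% of cells of the AT2-like class. By the same rule 7 fibroblast markers were detected in each cluster of the alveolar fibroblast-like class. Levels are given for the 21 classes in which no library had fewer than 30 cells, and tests for the 19 in which none had fewer than 50. A level is given as CPM, the UMIs of a gene summed over the cells of a class and library per 1000000 UMIs, with TMM scaling between libraries. The libraries shared between 57 and 91 cell barcodes in pairs, at most 0.601% of the smaller library. AT2-like cells made up 2.64% and 2.68% of kept cells in the BPTES libraries against 0.840% and 1.30% in the DMSO libraries, and B-like cells 4.72% and 4.03% against 9.65% and 8.55%.

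**Figure D1:**
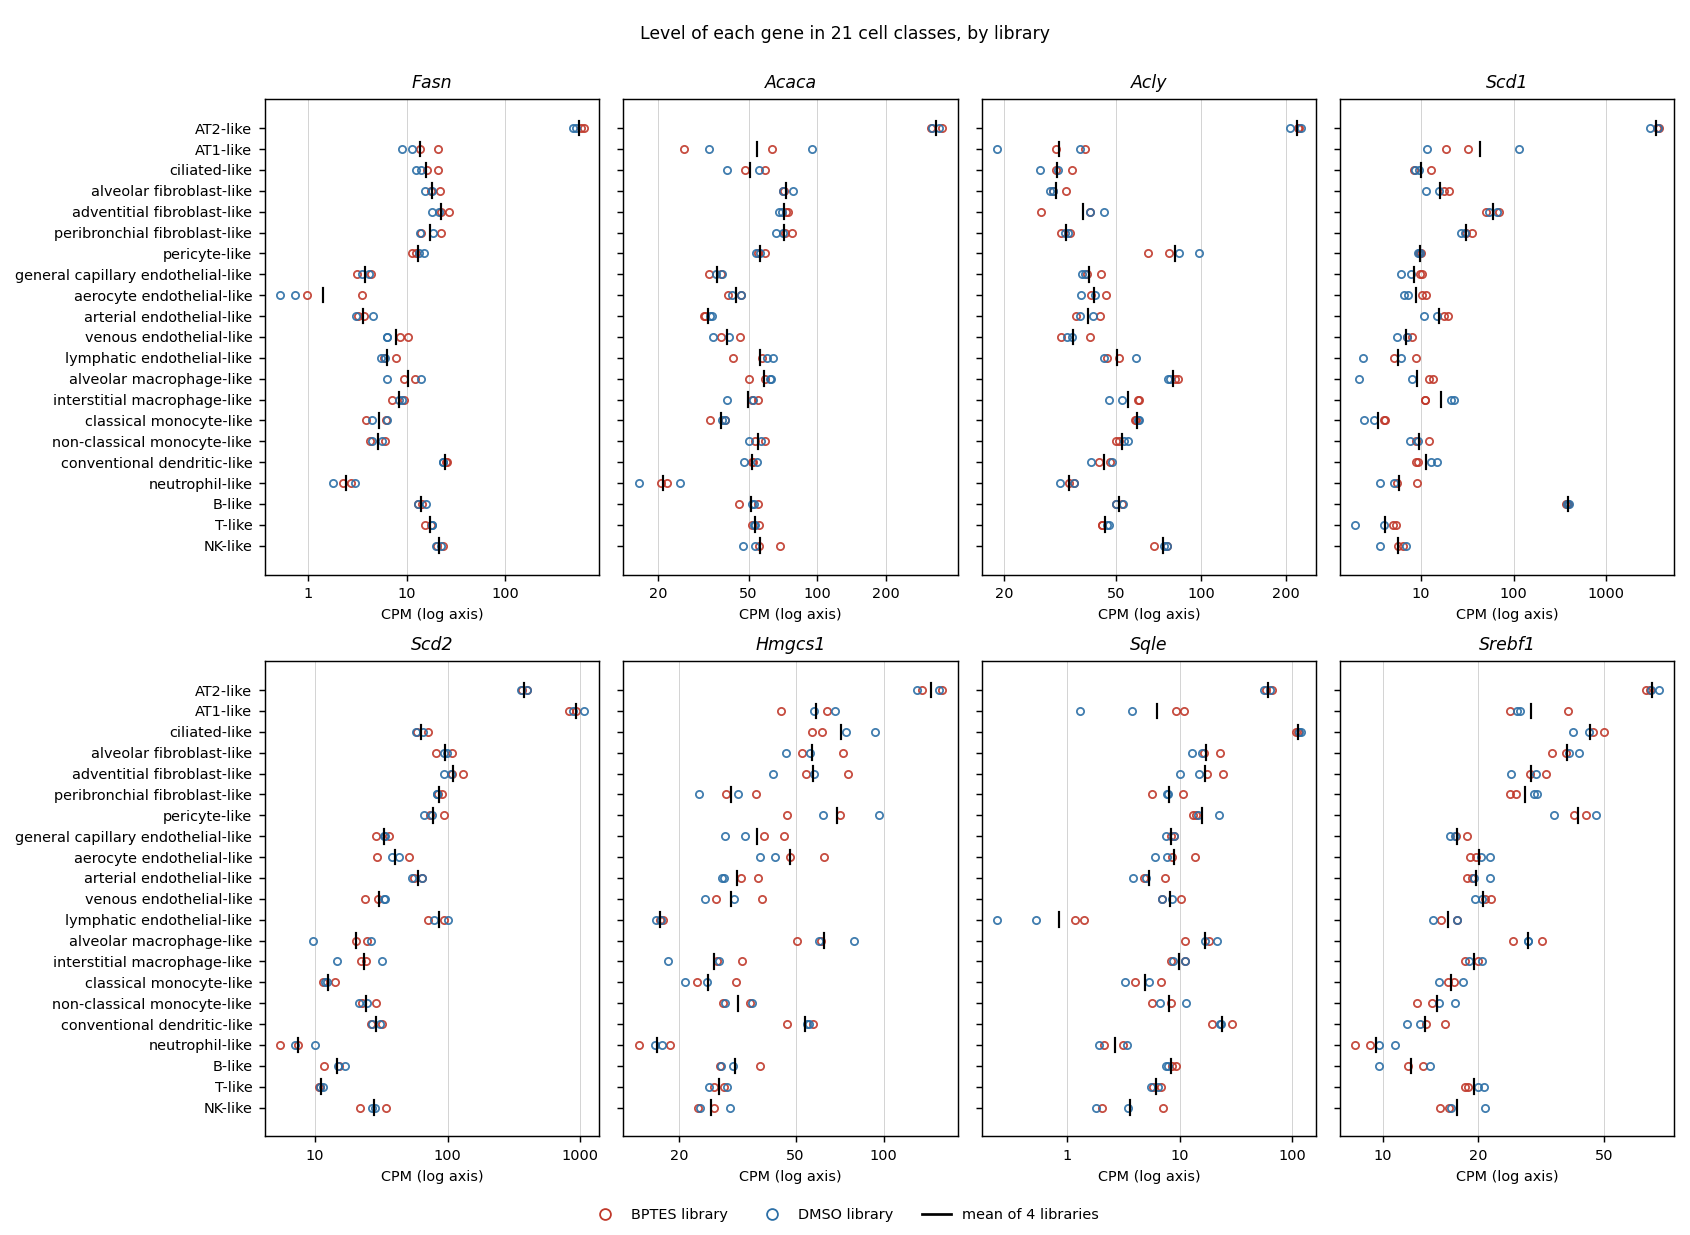
Level of the 8 genes (CPM, log axis, each panel with its own range) in 21 cell classes. Circles are the 4 libraries, coloured by group, and bars their mean. AT2-like cells stood highest for 6 genes, AT1-like cells for Scd2 and ciliated-like cells for Sqle.

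AT2-like cells had the highest mean level of Acly, Acaca, Fasn, Scd1, Hmgcs1 and Srebf1 among the 21 classes. For each of these 6 genes the lowest AT2-like library lay above the highest library of the next class. Acly stood at 222 and 221 CPM under BPTES and at 207 and 226 CPM under DMSO, against 65.1 to 98.1 CPM in pericyte-like cells, the next class. The cluster named pericyte-like scored 5.924 for pericyte and 4.682 for smooth muscle markers, with Myh11 among its leading genes. No cluster was named smooth muscle, so the name does not separate these cells. Acaca stood at 354 and 316 CPM with BPTES and at 320 and 342 CPM with DMSO, on between 1733 and 6100 UMIs per library. The next class for Acaca was alveolar fibroblast-like, at 70.9 to 78.3 CPM.

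Fasn, the enzyme that assembles palmitate, was more unequal between classes. Its level in AT2-like cells was 631 and 585 CPM under BPTES and 484 and 518 CPM under DMSO, a mean of 554 ± 66.3 CPM (SD, n = 4). The second class, conventional dendritic-like, had 24.3 ± 1.33 CPM (SD, n = 4), and from there down to arterial endothelial-like each class overlapped the next in the order. The cluster named conventional dendritic-like scored 4.374 for conventional and 4.326 for plasmacytoid dendritic markers, so its name does not separate them. Scd1, which makes oleate and palmitoleate, stood at 3772 and 3599 CPM with BPTES and at 3001 and 3649 CPM with DMSO in AT2-like cells. The DMSO library with the lowest value also held the fewest AT2-like cells, 121.

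Srebf1 was spread more evenly: 69.7 and 67.6 CPM with BPTES and 70.2 and 74.4 CPM with DMSO in AT2-like cells, against 39.8 to 49.9 CPM in the next class, ciliated-like. Hmgcs1 in AT2-like cells stood at 136 and 159 CPM with BPTES and at 155 and 130 CPM with DMSO, and at 56.9 to 93.7 CPM in ciliated-like cells. Scd2 and Sqle had AT2-like cells in second place. Scd2, a desaturase encoded by its own gene beside Scd1, was at 358 to 400 CPM in AT2-like cells and at 825, 927, 885 and 1071 CPM in the 4 libraries of AT1-like cells. These flat epithelial cells were shallow here, with 33 to 93 cells per library and a median of 3558 UMIs, but their Scd2 level rested on 234 to 980 UMIs per library. Scd2 was the sole member above its AT2-like level in AT1-like cells, where Scd1 ranged from 11.6 to 113 CPM and was highest in the library with the highest Sftpc there.

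Sqle was highest in ciliated-like cells, at 109 and 114 CPM with BPTES and 120 and 114 CPM with DMSO. AT2-like cells followed at 56.4 to 67.0 CPM, and the ratio of the 2 classes was 1.86 (1.70 to 2.03 in single libraries). After each cell was thinned to 3000 UMIs, 26.7% to 28.9% of ciliated-like cells had a UMI of Sqle, against 15.3% to 21.7% of AT2-like cells and 1.36% to 1.69% of T-like cells. Without thinning these shares were 76.7% to 90.2%, 69.4% to 79.3% and 6.75% to 7.39%, at median depths of 27816 to 36416.5, 43086 to 47219 and 15583 to 16081 UMIs. Thinning left out 11 ciliated-like, 4 AT2-like and 164 T-like cells.

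Fibroblasts had a different profile of the same pathway. In alveolar fibroblast-like cells, 11312 cells in all, Acaca stood at 71.4 and 71.1 CPM with BPTES and at 78.3 and 70.9 CPM with DMSO, and Scd2 at 82.1 and 107 CPM against 93.3 and 98.5 CPM. Fasn was at 15.4 to 21.7 CPM and Scd1 at 11.3 to 20.2 CPM. The AT2-like level exceeded the alveolar fibroblast-like level 218-fold for Scd1 (178 to 266 in single libraries) and 30.3-fold for Fasn (26.9 to 35.3). The same ratio was 7.18 for Acly, 4.57 for Acaca, 3.98 for Scd2, 3.60 for Sqle, 2.55 for Hmgcs1 and 1.85 for Srebf1. By mean level, alveolar fibroblast-like cells were second of 21 classes for Acaca and last for Acly, at 29.2 to 33.1 CPM. Neither place was separate from other classes. Acaca overlapped peribronchial fibroblast-like cells, at 66.3 to 77.6 CPM, and Acly overlapped ciliated-like cells, at 26.9 to 34.8 CPM.

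The 3 fibroblast classes differed among themselves mainly in Scd1. Adventitial fibroblast-like cells had 50.6 and 68.8 CPM with BPTES and 65.6 and 54.8 CPM with DMSO, 3.72 times the alveolar fibroblast-like level (2.89 to 5.81 in single libraries). Peribronchial fibroblast-like cells lay between them, at 26.9 to 35.5 CPM, and no library of the 3 classes overlapped another class. For Acaca the 3 classes overlapped, at 66.3 to 78.3 CPM over all their libraries. Hmgcs1 in peribronchial fibroblast-like cells, at 23.4 to 36.5 CPM, lay below the 42.0 to 75.8 CPM of the adventitial and 46.2 to 72.7 CPM of the alveolar class. Sqle in peribronchial fibroblast-like cells, at 5.65 to 10.7 CPM, lay below the 12.96 to 22.9 CPM of the alveolar class and overlapped the 9.99 to 24.3 CPM of the adventitial class.

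The alveolar fibroblast-like class joined 2 clusters, and Scd1 differed between them. The score of the class's markers was 3.799 in the larger cluster and 1.635 in the smaller, where that of adventitial fibroblast markers was 1.28. None of the class's markers was among the leading genes of the smaller cluster. The larger cluster had 11.02 and 10.9 CPM with BPTES and 7.01 and 9.45 CPM with DMSO, and the smaller one 33.2 and 37.9 CPM against 28.1 and 36.8 CPM. The smaller cluster thus overlapped the 26.9 to 35.5 CPM of peribronchial fibroblast-like cells. The smaller cluster held 25.0% and 29.9% of the class under BPTES and 17.5% and 19.9% under DMSO. Fasn, at means of 18.6 and 17.3 CPM, and Hmgcs1, at 56.0 and 58.5 CPM, were at similar levels in both.

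Scd1 had a second site of expression in B-like cells. Its level there was 387 and 368 CPM with BPTES and 399 and 382 CPM with DMSO, a mean of 384 ± 12.6 CPM (SD, n = 4), and the highest library of the third class, adventitial fibroblast-like, had 68.8 CPM. After thinning to 3000 UMIs, 63.0% to 64.4% of B-like cells had a UMI of Scd1, against 0.620% to 2.09% of T-like cells. At the Sftpc share described below, AT2 RNA would bring 6.78 and 4.98 CPM of Scd1 to B-like cells with BPTES and 1.56 and 3.71 CPM with DMSO. The share of B-like cells that free RNA alone would give a UMI was not measured. Unthinned shares were 84.96% to 89.1% and 2.98% to 8.10%, with 516 B-like cells too shallow for thinning. Scd1 in B-like cells was 94.6 times its T-like level (72.0 to 205 in single libraries). For the other 7 genes this ratio ran from 0.633 for Srebf1 to 1.37 for Sqle.

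The bottom of the order differed between genes. Neutrophil-like cells came last for Acaca (16.5 to 25.0 CPM), Scd2 (5.47 to 10.0 CPM), Hmgcs1 (14.5 to 18.5 CPM) and Srebf1 (8.21 to 10.97 CPM). Fasn was lowest in aerocyte endothelial-like cells, at 0.974 and 3.51 CPM with BPTES and 0.522 and 0.730 CPM with DMSO. Sqle was lowest in lymphatic endothelial-like cells, with a mean of 0.836 CPM, and Scd1 in classical monocyte-like cells, at 2.44 to 4.03 CPM. Most neighbouring classes in these orders overlapped, so single ranks in the middle of the order do not separate classes. This holds for some last places too. Fasn in neutrophil-like cells, at 1.81 to 2.98 CPM, and Scd1 in T-like cells, at 1.94 to 5.38 CPM, overlapped the class placed last.

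Within AT2-like cells, the 10th and 90th percentiles of Scd1 over single cells were 1110 and 6720 CPM in the first BPTES library, 934 and 6905 CPM in the second, 687 and 5616 CPM in the first DMSO library and 961 and 5941 CPM in the second. The medians over cells were 2839, 2536, 2456 and 2806 CPM in that order. Fasn spanned a narrower range, with 10th percentiles of 170 to 275 CPM and 90th percentiles of 778 to 950 CPM. Counting noise is part of these ranges.

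The rest of the pathway was read from 3 lists: 21 genes of fatty acid synthesis and its branches, 23 of cholesterol synthesis and handling, and 14 regulators and sterol sensors or exporters. AT2-like cells had the highest mean level of 10 of 21, 13 of 23 and 3 of 14 genes. Over the 14024 genes with at least 10 CPM in some class, that share was 3.52%. Among the fatty acid genes, Elovl1, an elongase of very long chains, stood at 1120 and 1088 CPM with BPTES and 1020 and 1072 CPM with DMSO in AT2-like cells, against 30.9 to 41.0 CPM in alveolar fibroblast-like cells. Mid1ip1, an activator of acetyl-CoA carboxylase, was at 428 to 510 CPM and Me1, the malic enzyme that yields NADPH, at 217 to 254 CPM. Idi1 (167 to 203 CPM) and Fdps (126 to 137 CPM) were among the highest of the cholesterol list there. Of the 11 fatty acid genes with their highest level in another class, Elovl6, the elongase of palmitate, averaged 0.520 CPM in AT2-like cells, the lowest of 21 classes, and 65.3 CPM in NK-like cells. Dgat1, which makes triglyceride from diacylglycerol, was also lowest there, at 9.81 CPM.

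In alveolar fibroblast-like cells the highest members of the fatty acid list were the desaturase Fads1 (73.4 to 85.6 CPM), Mid1ip1 (55.2 to 64.4 CPM) and Lpin1 (48.9 to 63.5 CPM), a phosphatidate phosphatase. Sc5d (76.6 to 87.8 CPM) and Cyp51 (32.6 to 66.1 CPM) were among the highest of the cholesterol list. Sc5d, a late enzyme of the sterol route, had its highest mean in this class. Of the regulators, the cholesterol exporter Abca1 stood at 164 to 187 CPM, against 18.6 to 25.3 CPM in AT2-like cells, Srebf2 at 84.0 to 98.8 CPM and Insig1 at 85.7 to 90.8 CPM.

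Across the means of the 19 tested classes, on the log2(CPM + 1) scale, the closest pairs of members were Fasn and Acaca, with a Pearson r of 0.91, and Hmgcs1 and Sqle, with 0.89. Without AT2-like cells these values were 0.73 and 0.87. Acly and Sqle had the lowest r, 0.20, which became -0.30 without AT2-like cells. These are descriptions over 19 class means that come from the same 4 libraries, and classes differ in depth.

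The genes outside the lists with the most similar pattern over the same 19 classes, AT1-like cells not among them, were highest in AT2-like cells, with 3 exceptions named below. For Fasn these were Tmem42 (r = 0.95), Ttc38 (0.91) and Gpt (0.88), and for Acaca Tmem42 (0.89), Ttc38 (0.89) and Exosc7 (0.87). For Acly they were Ager (0.88), Ppp1r1b (0.85) and Prmt8 (0.83). For Scd1 they were Egfl6 (0.83), Lamp3 (0.81), which is itself a type 2 cell marker, and Sp5 (0.81). Scd2 was closest to Tceal9 (0.94), Bmp1 (0.91) and Ggcx (0.91), and Srebf1 to Tecr (0.92), Dlg3 (0.91) and 2310030G06Rik (0.90). Hmgcs1 was closest to Pcyt2 (0.84), Reep6 (0.84) and Pard6b (0.81), and Sqle to Selenos (0.89), Pcyt2 (0.84) and Noxo1 (0.84). Selenos, Noxo1 and 2310030G06Rik were the exceptions, with their highest mean in ciliated-like cells.

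The study's treatment comparison was made within each class, between 2 BPTES and 2 DMSO libraries, with edgeR's quasi-likelihood test over all genes of the class. No pair of member and class passed an adjusted p of 0.05: 0 of 149 pairs tested, where 0.0806% of all 239383 gene and class pairs did. DESeq2 also called 0 of these 149 pairs. At an unadjusted p under 0.05 there were 15 pairs (10.1%), 12 higher and 3 lower with BPTES, against 12.5% of all pairs. Groups did not overlap in 32 pairs higher with BPTES (21.5%, all pairs 22.2%) and 24 lower (16.1%, all pairs 22.3%). Over the 8 genes together these shares lie close to or below those of all genes, but single members differed from that. Srebf1 separated downward in 9 of 19 classes (47.4%) and upward in 4 (21.1%), with log2 differences of -0.26 to 0.24 and 0 classes at an unadjusted p under 0.05. Scd1 separated upward in 8 of 19 classes (42.1%) and downward in 2 (10.5%). An unadjusted p under 0.05 came in 31.6% of the classes for Scd1, 21.1% for Hmgcs1 and 17.6% for Sqle. The classes come from the same 4 libraries and are not independent. Fasn in aerocyte endothelial-like cells and Sqle in NK-like and lymphatic endothelial-like cells were too low to be tested.

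**Figure D2:**
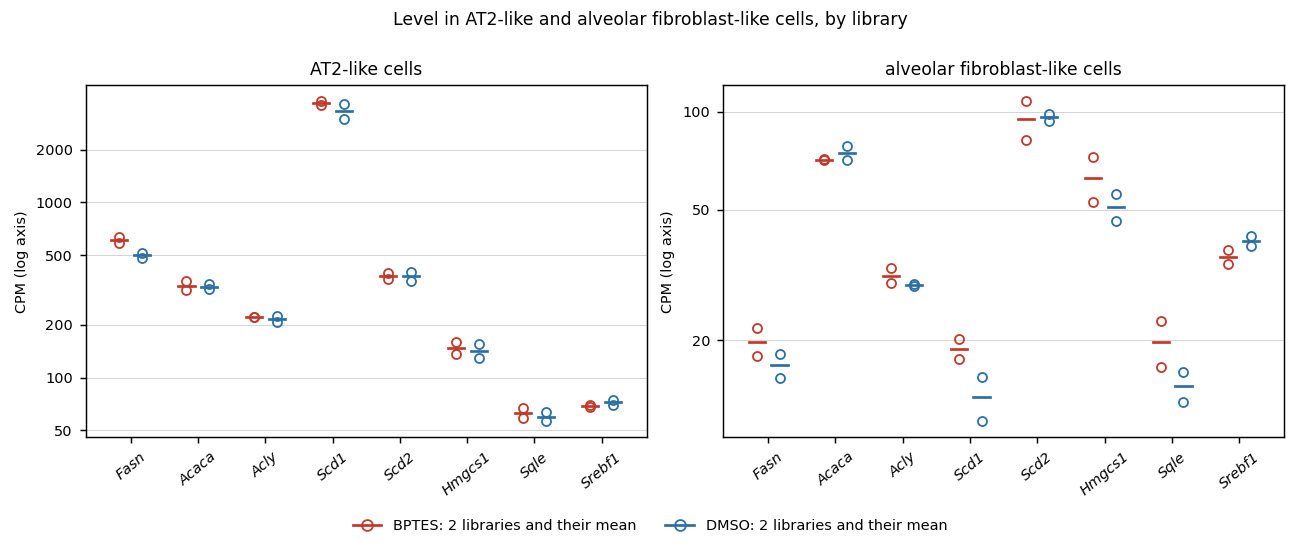
Level of the 8 genes (CPM, log axis) in AT2-like cells (left) and alveolar fibroblast-like cells (right). Circles are single libraries and bars the mean of 2, BPTES in red and DMSO in blue. In AT2-like cells the groups separate upward for Fasn, 585 and 631 against 484 and 518 CPM. In alveolar fibroblast-like cells they separate upward for Acly, Scd1 and Sqle.

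In AT2-like cells, where 0.0842% of genes were called, none of the 8 was. Groups separated upward for 1 member (23.3% of all genes) and downward for 1 (24.2%). Fasn was the member with the largest difference. Its BPTES libraries, at 631 and 585 CPM, both lay above its DMSO libraries, at 484 and 518 CPM, with a log2 difference of 0.28 (SE 0.08, approximate 95% interval 0.10 to 0.46) and an edgeR adjusted p of 0.170. Leaving the low-count filter out, where 3.14% of all gene and class pairs were called, gave an edgeR adjusted p of 0.0392. Over 14 alternatives the adjusted p ranged up to 0.488. Scd1 had overlapping groups and a log2 difference of 0.15 (interval -0.08 to 0.38, edgeR adjusted p 0.541). Over the 14 alternatives this difference ranged from 0.03 to 0.30. The intervals for Acly (-0.14 to 0.20), Acaca (-0.17 to 0.21), Scd2 (-0.19 to 0.19), Hmgcs1 (-0.19 to 0.30), Sqle (-0.14 to 0.30) and Srebf1 (-0.25 to 0.10) all included 0. Srebf1 groups separated downward, at 69.7 and 67.6 against 70.2 and 74.4 CPM, a difference smaller than the spread of the DMSO pair.

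In alveolar fibroblast-like cells, where 0.334% of genes were called, none of the 8 was called either. Groups separated upward for 3 members (27.2% of all genes) and downward for 1 (28.8%). Scd1 stood at 17.5 and 20.2 CPM with BPTES and 11.3 and 15.5 CPM with DMSO, a log2 difference of 0.49 (SE 0.15, edgeR adjusted p 0.137). Without the second DMSO library it was 0.74, and with doublets kept and cells clustered again it was -0.27. Within the 2 clusters of the class the difference was 0.41 in the larger one and 0.13 in the smaller one, which has the higher Scd1 level and the larger share of the class in the BPTES libraries. All 9 AT2 markers were detected in this class, and their summed level was 297 and 232 CPM with BPTES against 109 and 183 CPM with DMSO.

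Sqle in the same cells stood at 16.6 and 22.9 CPM with BPTES and 12.96 and 15.9 CPM with DMSO, a log2 difference of 0.45 (SE 0.16, edgeR adjusted p 0.177). Without the first BPTES library it was 0.67, and over 14 alternative settings it ranged from 0.20 to 0.67. Sqle in adventitial fibroblast-like cells was at 17.6 and 24.3 CPM with BPTES and 9.99 and 14.9 CPM with DMSO. That log2 difference of 0.78 had an interval of 0.17 to 1.38 and an edgeR adjusted p of 0.312. Over 13 alternative settings it ranged from 0.50 to 1.09. It was called in 1 of them, without the low-count filter (edgeR adjusted p 0.0024), where 3.14% of all gene and class pairs were called. In these 2 fibroblast classes the groups did not overlap, while in peribronchial fibroblast-like cells Sqle overlapped, at 5.65 and 10.7 against 7.67 and 7.92 CPM (log2 difference 0.11, adjusted p 0.950). Hmgcs1 overlapped in the alveolar and adventitial classes, with log2 differences of 0.30 (interval -0.07 to 0.66) and 0.39 (-0.13 to 0.91). Over 14 alternative settings the alveolar value ranged from 0.05 to 0.52.

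The difference between the BPTES effects in AT2-like and alveolar fibroblast-like cells was tested directly, with library as a term. It was called for 0 of the 8 members and for 0 of 17166 genes (0%), and 10.3% of genes had an unadjusted p under 0.05, none of them a member. The effect on Scd1 was 0.34 lower in AT2-like cells on the log2 scale (interval -0.69 to 0.02, edgeR adjusted p 0.509) and that on Sqle 0.34 lower (-0.72 to 0.04, adjusted p 0.533). For the other 6 genes the difference lay between -0.22 and 0.10.

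**Figure D3:**
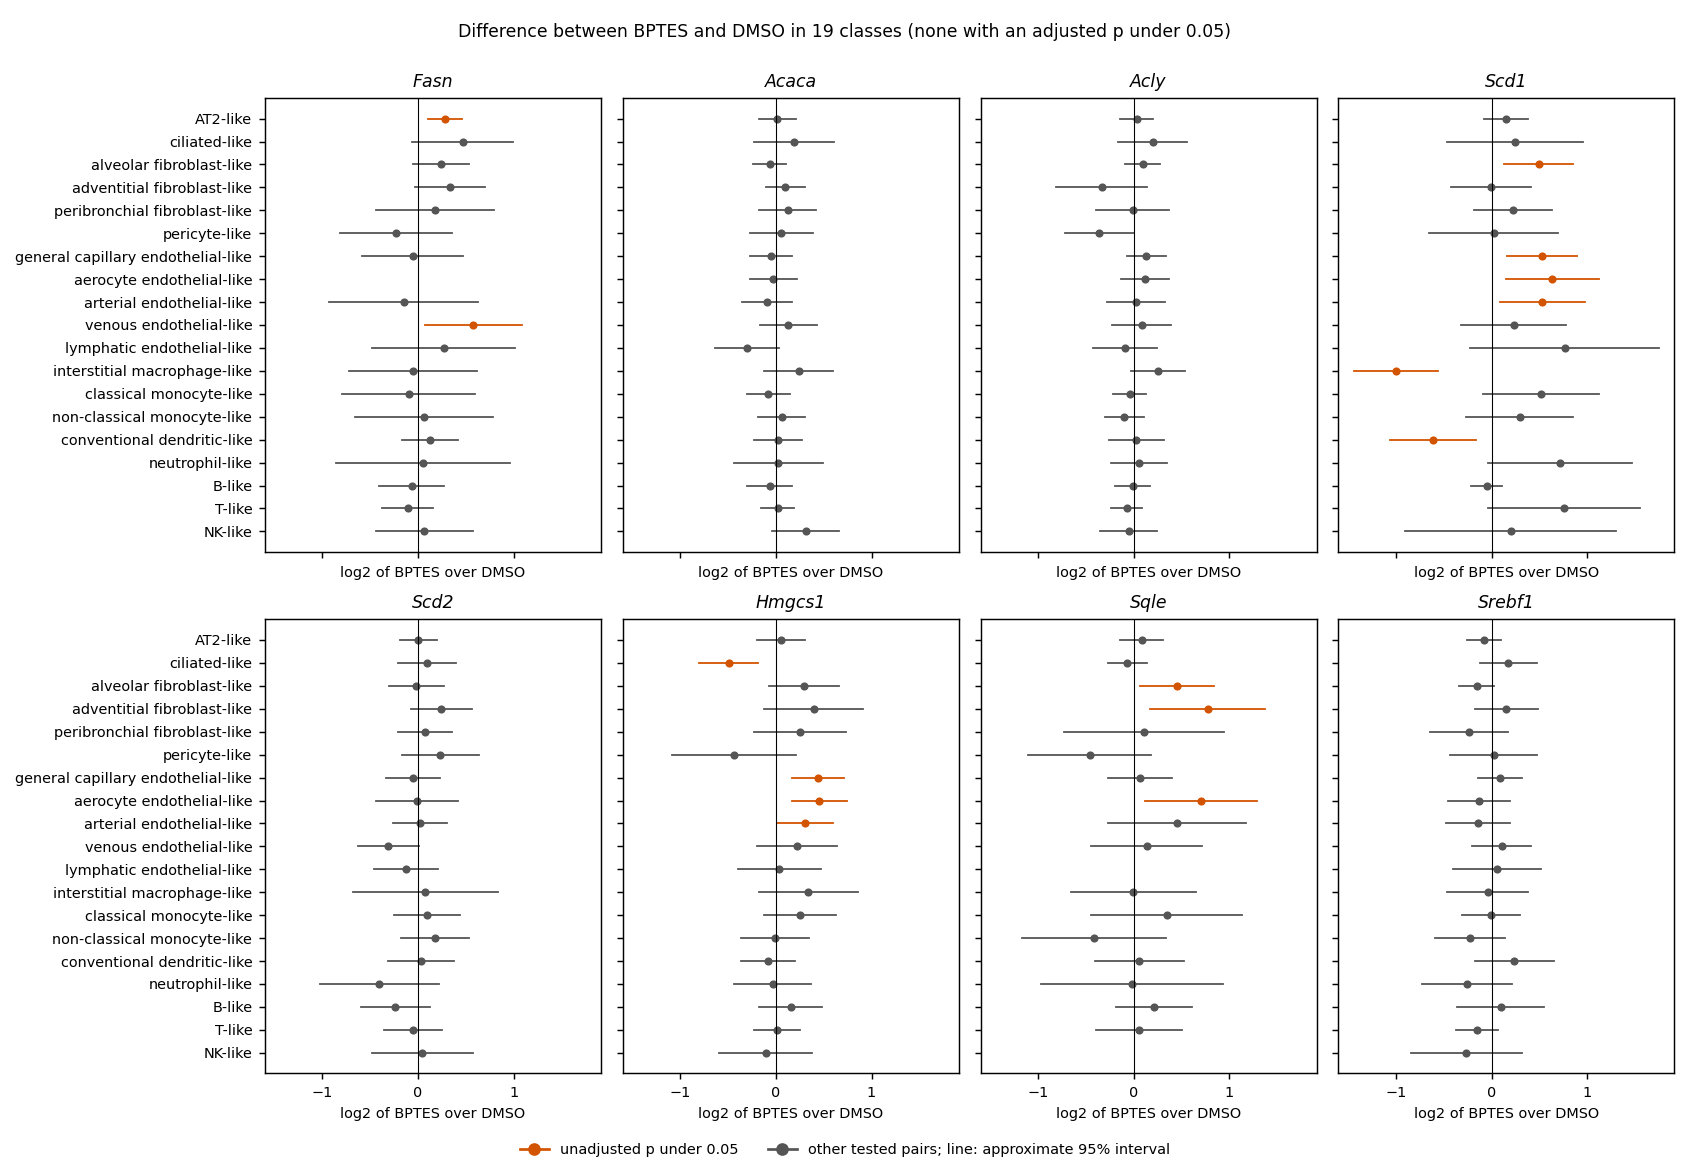
Log2 difference of BPTES over DMSO for the 8 genes in the 19 tested classes, with approximate 95% intervals from edgeR. Orange marks the 15 pairs with an unadjusted p under 0.05. None passed the adjusted threshold, and Scd1 had the widest range, from -0.998 to 0.764.

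Hmgcs1 in general capillary endothelial-like cells was at 39.0 and 45.8 CPM with BPTES and 28.7 and 33.5 CPM with DMSO, a log2 difference of 0.44 (SE 0.11, edgeR adjusted p 0.118). In aerocyte endothelial-like cells it was at 48.0 and 62.5 against 37.9 and 42.5 CPM, 0.45 on the log2 scale (SE 0.13, adjusted p 0.217). Both were called with the replicate number as a block, where 1.6% of all gene and class pairs were called. They were also called without the low-count filter, where 3.14% of all pairs were. Without the first BPTES library the log2 difference was 0.56 and 0.63. Over 14 alternative settings it ranged from 0.32 to 0.57 in general capillary and from 0.26 to 0.65 in aerocyte endothelial-like cells. Arterial endothelial-like cells showed 32.4 and 37.3 against 28.4 and 28.0 CPM, a log2 difference of 0.30. Over 14 alternative settings it ranged from 0.10, without cells holding UMIs of 2 or more AT2 markers, to 1.04, with cells clustered without the pathway genes. In these 3 classes every BPTES library lay above every DMSO library, as in 22.2% of all gene and class pairs. Groups of Hmgcs1 overlapped in venous endothelial-like cells, at 26.7 and 38.5 against 24.6 and 30.7 CPM (log2 difference 0.22). They also overlapped in lymphatic endothelial-like cells, at 17.2 and 17.6 against 17.3 and 16.6 CPM (0.04). Sqle in aerocyte endothelial-like cells was at 8.63 and 13.6 against 7.65 and 5.99 CPM (log2 difference 0.70, adjusted p 0.378). Over 14 alternative settings it ranged from 0.35, without the second BPTES library, to 1.39, without cells holding UMIs of 2 or more AT2 markers.

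Ciliated-like cells went the other way for Hmgcs1, at 61.4 and 56.9 CPM with BPTES and 93.7 and 74.5 CPM with DMSO. The log2 difference was -0.49 (SE 0.13, edgeR adjusted p 0.408). Without the low-count filter, where 3.14% of all gene and class pairs were called, the edgeR adjusted p was 0.0153. Sqle in ciliated-like cells, the highest of any class, differed by -0.07 (interval -0.27 to 0.14). Fasn in venous endothelial-like cells was at 8.47 and 10.4 CPM with BPTES and at 6.29 and 6.30 CPM with DMSO (log2 difference 0.58, edgeR adjusted p 0.357). Without cells that had UMIs of 2 or more AT2 markers the difference was 0.07. After the subtraction by Sftpc described below, the groups did not overlap, at 7.41 and 9.62 against 6.05 and 5.81 CPM. The part of AT2 RNA in this difference was not tested.

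Scd1 outside AT2-like and B-like cells was set beside RNA of those cells. The part of such RNA in the Scd1 differences was not tested. Sftpc, the surfactant protein C gene of type 2 cells, had a median level over the 18 other tested classes of 274 and 204 CPM under BPTES and 68.6 and 149 CPM under DMSO, against 160511 to 172441 CPM in AT2-like cells. The summed level of the 9 AT2 markers in these classes ranged from 210 to 1003 CPM with BPTES and from 92.2 to 892 CPM with DMSO. This sum did not follow Sftpc in every class: in non-classical monocyte-like cells, which held the highest values, it was 714 CPM in the first DMSO library, where Sftpc was at 67.6 CPM. If Scd1 is carried in the ratio to Sftpc found in AT2-like cells, this RNA brings 6.85 and 4.93 CPM of Scd1 to general capillary endothelial-like cells with BPTES and 1.503 and 3.73 CPM with DMSO. The observed levels there were 10.3 and 9.74 against 6.11 and 7.71 CPM (log2 difference 0.53, edgeR adjusted p 0.139), and the remainders, 3.44 and 4.80 against 4.60 and 3.98 CPM, overlapped.

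The same subtraction was made in all 18 classes. Observed Scd1 groups separated upward with BPTES in 8 classes and downward in 2, and the remainders separated upward in 2 and downward in 7. Over all gene and class pairs tested, observed groups separated upward in 22.2% and downward in 22.3%. No such share was computed for remainders. The amount subtracted was larger in both BPTES libraries than in both DMSO libraries of every class, which lowers the BPTES remainders more. Of the 72 remainders, 4 were below 0, which no level can be, and NK-like, T-like and classical monocyte-like cells, 3 of the 7 downward classes, each held 1 of them. The 2 upward classes were alveolar fibroblast-like, where the nearest libraries of the groups all but met (12.8 and 16.7 against 10.2 and 12.8 CPM), and arterial endothelial-like (13.4 and 13.002 against 9.37 and 11.7 CPM). The observed log2 difference of 0.53 in arterial endothelial-like cells (edgeR adjusted p 0.267) ranged from 0.044, with cells clustered without the pathway genes, to 0.81, without the second DMSO library. In aerocyte endothelial-like cells the observed 11.3 and 10.2 against 7.30 and 6.57 CPM left 6.09 and 6.41 against 6.19 and 3.88 CPM. The median share so assigned was 37.5% of the observed level for Scd1, 5.03% for Fasn and at most 1.12% for the other 6 genes.

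**Figure D4:**
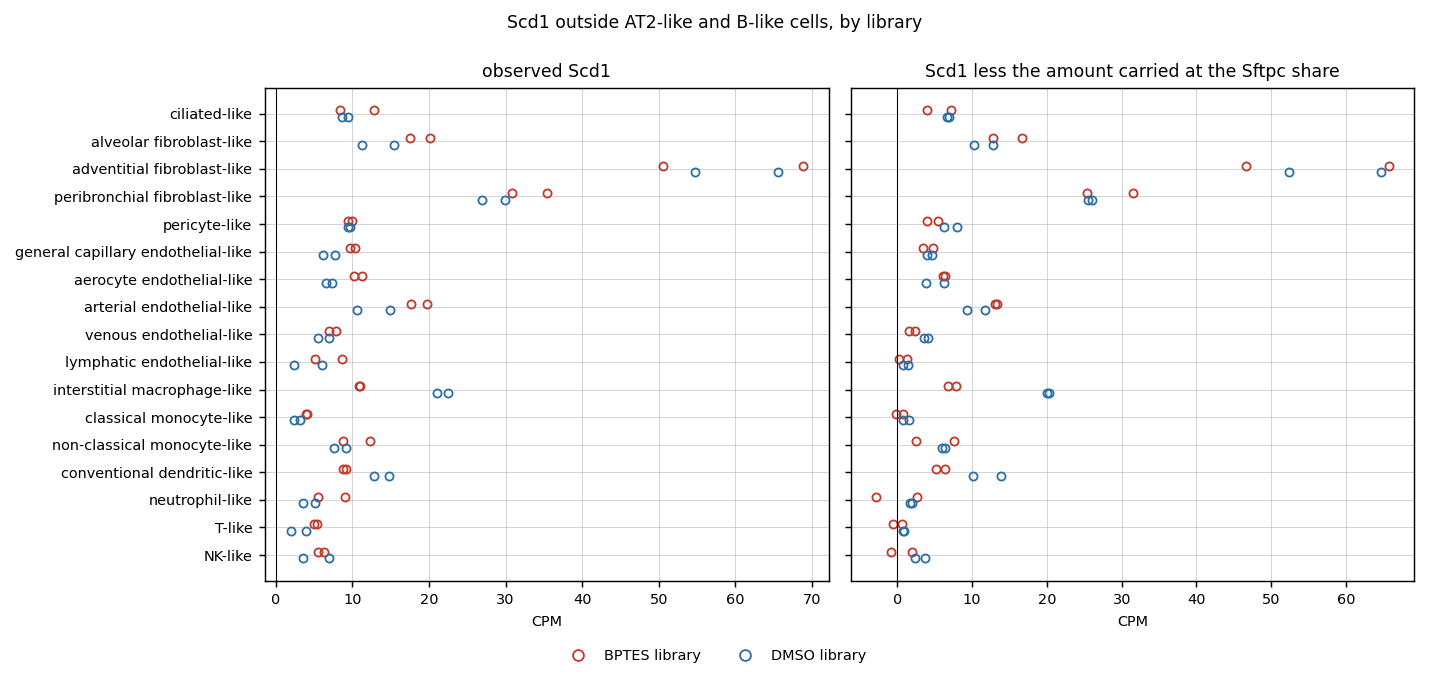
Scd1 in the 17 tested classes other than AT2-like and B-like, by library, in CPM. The left panel holds the observed level, the right one the level less the amount assumed to be carried at the library's Sftpc share. General capillary and aerocyte endothelial-like cells have separate groups on the left and overlapping ones on the right, while interstitial macrophage-like cells, at 10.93 and 10.95 against 21.1 and 22.5 CPM on the left, have separate groups in both.

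Interstitial macrophage-like cells had the smallest adjusted p of any member. Scd1 stood at 10.93 and 10.95 CPM with BPTES and 21.1 and 22.5 CPM with DMSO, a log2 difference of -0.998 (SE 0.19, interval -1.44 to -0.56, edgeR adjusted p 0.0815), on 45 to 102 UMIs per library. Without the low-count filter it was -0.96 (adjusted p 0.0027), a setting in which 3.14% of all gene and class pairs were called. With doublets kept and cells clustered again, the value for the class so named was 0.86 (adjusted p 0.428). The 6 B cell markers were all detected in this class, and their summed level was 137 and 190 CPM with BPTES against 309 and 539 CPM with DMSO. At the ratio of Scd1 to these markers in B-like cells, that corresponds to 7.03 and 10.0 against 16.8 and 27.9 CPM of Scd1. Conventional dendritic-like cells showed the same pair of measures: Scd1 at 8.78 and 9.22 against 14.8 and 12.8 CPM (log2 difference -0.62, adjusted p 0.416), and B cell markers at 37.1 and 74.3 against 170 and 178 CPM, which corresponds to 1.91 and 3.91 against 9.29 and 9.21 CPM. The part of B cell RNA in these 2 differences was not tested. B-like cells themselves showed no Scd1 difference (log2 -0.05).

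Of the 58 listed genes, 1004 pairs of gene and class were tested and edgeR called 0, where 0.0806% of all pairs were called. An unadjusted p under 0.05 came in 94 of them (9.36%), against 12.5% of all pairs. DESeq2 called 6, and 1.45% of all pairs that it gave an adjusted p. The closest was Insig1 in AT2-like cells, the sterol sensor that holds SREBP in the endoplasmic reticulum. It stood at 100 and 99.4 CPM with BPTES and 142 and 140 CPM with DMSO, a log2 difference of -0.49 (SE 0.07, edgeR adjusted p 0.0554). Its adjusted p was below 0.05 in 6 of 14 alternative settings, DESeq2 among them, and ranged from 0.0012 to 0.238 over them, while its log2 difference ranged from -0.50 to -0.47. Me1 in lymphatic endothelial-like cells followed, with a log2 difference of -1.74 (edgeR adjusted p 0.0612). Its adjusted p was below 0.05 in 5 of 13 alternative settings, and its log2 difference ranged from -1.92 to -1.34 over them. Lpin1 in alveolar fibroblast-like cells was at 60.9 and 63.5 against 48.9 and 51.0 CPM (0.32, adjusted p 0.0929), with 0.45 in the larger and -0.045 in the smaller of the 2 clusters of that class, and Cyp51 at 49.9 and 66.1 against 32.6 and 46.1 CPM (0.56, adjusted p 0.148).

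**Figure D5:**
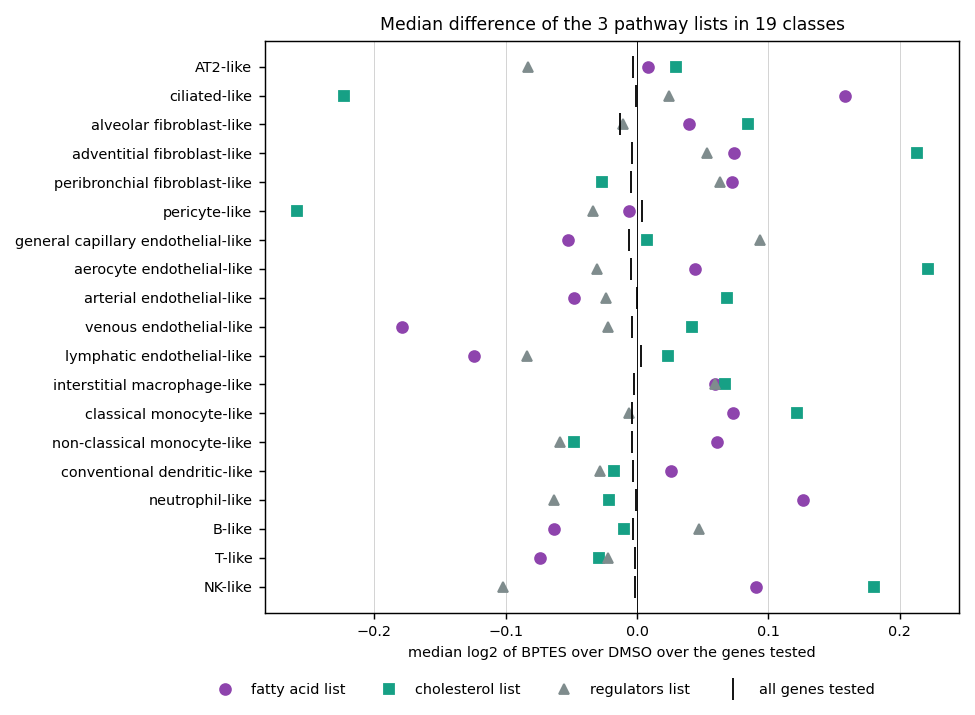
Median log2 difference of BPTES over DMSO over the tested genes of each pathway list in 19 classes, with the median of all genes tested as black bars. The cholesterol list lies lowest in pericyte-like and ciliated-like cells, at -0.26 and -0.22, and highest in aerocyte endothelial-like and adventitial fibroblast-like cells, at 0.22 and 0.21.

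The median of the cholesterol list lay above 0 in some classes and below 0 in others. The 4 classes given first were picked because they had its highest and lowest medians. The share of all genes above 0 was not computed. In aerocyte endothelial-like cells 17 of 22 tested genes were above 0, with a median of 0.22, and groups separated upward for 8 of 22 against 20.2% of that class's genes. In adventitial fibroblast-like cells 19 of 22 were above 0, with a median of 0.21. Groups separated upward there for 5 of 22, close to the share of 23.4% over that class's genes. In ciliated-like cells 3 of 18 were above 0, with a median of -0.22, and groups separated downward for 10 of 18 where 20% of that class's genes did. In pericyte-like cells 3 of 22 were above 0, with a median of -0.26, and groups separated downward for 7 of 22 against 19.9% of genes. The medians over all genes of these 4 classes lay between -0.0044 and 0.0037. In AT2-like cells the fatty acid list had 11 of 20 and the cholesterol list 13 of 22 above 0, with medians of 0.01 and 0.03. In alveolar fibroblast-like cells these were 10 of 20 and 16 of 23, with medians of 0.04 and 0.08. No gene in these counts passed the adjusted threshold, and differences between the classes were not tested.

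Summed over all kept cells of a library, Scd1 stood at 280 and 260 CPM of the library with BPTES and at 112 and 162 CPM with DMSO, a ratio of 1.97, and Fasn at 52.5 and 50.9 against 22.2 and 28.6 CPM, a ratio of 2.03. AT2-like cells were 2.64% and 2.68% of kept cells with BPTES and 0.840% and 1.299% with DMSO, and their median depth was 43086 to 47219 UMIs per cell in the 4 libraries. They supplied 90.5% and 90.4% of Scd1 UMIs under BPTES and 62.4% and 76.0% under DMSO, and B-like cells 4.87% and 3.82% against 26.0% and 16.5%. The ratio was 1.37 for Sqle, 1.26 for Hmgcs1, 1.197 for Scd2, 1.16 for Acly, 1.14 for Acaca and 1.03 for Srebf1. A two-sided exact permutation test of 2 against 2 libraries cannot go below p = 0.333.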

How the data were processed

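Single-cell RNA of 4 lung libraries (2 BPTES, 2 DMSO) was made with a 10x GEM-X 3' v4 kit, per the labels' protocols, and processed with Cell Ranger 8.0.1 and mm10, per the submitters' processing notes. The deposited values are UMI counts per gene and barcode, whole and not normalized. Barcodes with at least 500 genes and 1000 UMIs and at most 10% mitochondrial UMIs were kept, and doublets, scored against simulated pairs, were removed at 0.4% per 1000 barcodes. Cells were scaled to 10000 counts, and 2000 variable genes and 40 principal components gave 15-neighbour graphs for Leiden clustering (resolution 1, igraph 0.11.9, numpy 2.4.6, scipy 1.17.1). A cluster was named from a marker score of at least 1.5 with 3 markers detected in at least 10% of cells, unless shallow or led by another class's genes. Of the 58 pathway genes, 4 were among the variable genes, and clustering without the lists was an alternative.

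Counts were summed per library and class and tested with edgeR 4.0.16 (TMM, filterByExpr, quasi-likelihood, two-sided, Benjamini-Hochberg within a class over all genes, threshold 0.05), in R 4.3.3, for classes in which no library had fewer than 50 cells. Intervals are approximate 95% intervals from the fitted value and its SE. DESeq2 1.42.0 was an alternative, and the scripts were tested on simulated data. No ambient RNA correction was applied before the tests. The Sftpc-based amount is the AT2-like level of a gene in a library times the class's Sftpc level over the AT2-like one.

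The members and lists were chosen with earlier results of these data known. The text names the 8 members in every class. Apart from these, it names the 3 list members with the highest level in AT2-like and in alveolar fibroblast-like cells per list. It also names list members called in a class and the 3 genes most alike each member over 19 classes. The latter were taken among genes with at least 10 CPM in a class. Elovl6, Dgat1 and, in lymphatic endothelial-like cells, Me1 were named after their values were seen. One list member that this rule names is not reported here. Splitting the alveolar fibroblast class by cluster was added after the data were seen. Cells are not replicates, so every test has 2 libraries a group.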

Additional observations from a re-analysis of the deposited data

Results flagged for a closer look

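Scd1 differed in direction between 2 classes under the same treatment. Its log2 difference of BPTES over DMSO was 0.526 in general capillary endothelial-like cells, where both BPTES libraries lay above both DMSO libraries, and -0.998 in interstitial macrophage-like cells, where both lay below. The interstitial macrophage-like value was 0.865 with doublets kept and cells clustered again, and the summed B cell markers in that class were at 137 and 190 CPM with BPTES against 309 and 539 CPM with DMSO. After subtraction of the Scd1 that goes with Sftpc, the general capillary remainders overlapped, at 3.44 and 4.80 against 4.60 and 3.98 CPM. Hmgcs1 did so in a second pair of classes, at 0.453 in aerocyte endothelial-like and -0.494 in ciliated-like cells. These pairs were chosen for their opposite signs from 19 classes, no value passed the adjusted threshold with edgeR, and the difference between the classes was not tested. Without the low-count filter all 4 values passed it, at adjusted p of 0.0114, 0.0027, 0.0109 and 0.0153 in the order given, where 3.14% of all gene and class pairs did. With the replicate number as a block, 1.6% of all gene and class pairs passed. The general capillary value of Scd1 (0.0440) and the aerocyte value of Hmgcs1 (0.0054) were among them.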

How the results depend on the processing

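In the 5 alternatives in which levels were recomputed, 6 of the 8 genes were highest in AT2-like cells, and 79 of 80 recomputed levels lay within 1 SD. Of the 8 genes, 0 pairs were called with edgeR, against 7 of 152 without the low-count filter and 0 to 3 when 1 library was left out, where the lone library of a group is assumed to vary like the others. Over the 3 lists these counts were 0, against 6 with DESeq2, 45 of 1099 without the filter, 1 to 20 with 1 library left out, and 1 each (Insig1 in AT2-like cells) with a mitochondrial limit of 5%, at resolution 0.5 and with seed 1. With the replicate number as a block, 3 member pairs (Scd1 in general capillary and Hmgcs1 in general capillary and aerocyte endothelial-like cells) and 13 list pairs were called. Of all gene and class pairs, 0.0806% were called with edgeR, 1.45% with DESeq2, 3.14% without the filter, 0.447% to 2.14% with 1 library left out, 1.6% with the block, 0.0976% at the 5% limit, 0.0953% at resolution 0.5 and 0.0963% with seed 1. The labels do not say that numbers mark shared animals or days, and same-numbered libraries deviated together with correlations of -0.16 to 0.32 over the classes. The difference between AT2-like and alveolar fibroblast-like effects called 0 members in each alternative.

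Of 444 log2 differences recomputed, 26 passed the threshold and 22 changed sign, none of the latter called. With doublets kept and cells clustered again, Scd1 was -0.273 in alveolar fibroblast-like and 0.865 in interstitial macrophage-like cells, Acaca -0.029 and Scd2 -0.021 in AT2-like cells, and Scd2 0.029 in alveolar fibroblast-like cells, and the cause was not tested. Scd2 was also -0.016 in AT2-like cells at the 5% limit and 0.028 in alveolar fibroblast-like cells at resolution 0.5. In single alveolar fibroblast clusters, Acly was -0.098 and Lpin1 -0.045 in the smaller and Scd2 0.051 in the larger one. With 1 library left out, values in AT2-like cells ran from -0.068 to 0.097 for Acaca, -0.017 to 0.102 for Acly, -0.064 to 0.092 for Scd2, -0.067 to 0.191 for Hmgcs1 and -0.013 to 0.173 for Sqle, and in alveolar fibroblast-like cells from -0.132 to 0.014 for Acaca and -0.223 to 0.174 for Scd2. With 2 libraries a group, differences inside the printed intervals could not be resolved, and the levels of aerocyte Fasn and lymphatic Sqle rest on few UMIs. Library ratios were recomputed over all deposited barcodes and ranged from 1.03 for Srebf1 to 2.05 for Fasn.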
